A study of Mus musculus with 8 samples.

Results

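The 9 genes described here encode the ATP-sensitive potassium channel (KATP) of islet cells and 7 other potassium channels that islet cells are known to use. They are Abcc8, Kcnj11, Kcnb2, Kcnh6, Kcnk16, Kcnk3, Kcnk1, Kcnma1 and Kcnq1, chosen by gene symbol among 23284 genes. All 9 had a row in the deposited tables and all 9 passed the filter on low counts, with 76 to 13413 reads per library. The data are gene counts of 8 RNA libraries from mouse pancreas at embryonic day 17. In 4 KO libraries (replicates 8, 9, 17 and 24) both copies of Neurod1 were floxed; the gene encodes a helix-loop-helix factor that activates transcription in islets and neurons. In 4 Het libraries (replicates 6, 7, 13 and 19) only a single allele was floxed and the other was wild type, so neither group had 2 intact alleles after recombination. Both groups carried Neurog3-Cre and the RosaTomato reporter, on a strain that the labels write as C56BL/J. The cells were sorted for the reporter. Neurog3-Cre is active in endocrine precursors, and the counts do not show in which cells recombination took place. The labels do not say whether a library is 1 embryo or a pool, and p-values measure the spread between these libraries.

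Potassium channels set the resting potential of islet cells and end their electrical spikes. In the beta cell, KATP is open at low glucose and holds the membrane at rest. When glucose metabolism raises ATP the channel closes, the membrane depolarises, voltage-gated calcium channels open and insulin granules are released. Voltage-gated and calcium-activated potassium channels then repolarise the membrane, and two-pore-domain channels carry a background leak. The comparison asks whether the RNA of these channels differed between sorted cells with both Neurod1 copies floxed and sorted cells with a single copy floxed. Both groups also held acinar marker RNA, and the KO libraries held some Neurod1 RNA, as given below.

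Libraries held 10.35 M to 16.08 M counts. Levels are CPM, which relate a gene's counts to the scaled library size. Neurod1 stood at 2.55, 12.9, 22.2 and 21.5 CPM in KO replicates 8, 9, 17 and 24, against 133, 138, 141 and 210.5 CPM in Het replicates 6, 7, 13 and 19. The groups did not overlap, and the log2 fold change, here always KO over Het, was −3.40 ± 0.52 (SE; adjusted p = 0.0165 by edgeR's quasi-likelihood test with Benjamini-Hochberg adjustment). The 15 endocrine markers include hormone genes and Neurod1 itself. They summed to 21251 to 41835 CPM in KO and 63019 to 87863 CPM in Het, with none at 0. Gcg, at 11646.5 to 20672 CPM in KO and 30174 to 31502 CPM in Het, weighs most in that sum. The groups did not overlap for 7 of the 15, all lower in KO, against 8.03% of all genes tested in either direction. They overlapped for Chga, Chgb, Scg2, Pax6, Insm1, Sst, Ppy and Ghrl. KO replicate 8 stood apart in its mesenchyme markers. Its 12 mesenchyme markers summed to 9341 CPM, against 340.3 to 476 CPM in the other KO libraries and 236 to 1147 CPM in Het. It was highest for 10 of the 12, while Myh11 and Cnn1 were highest in Het replicate 6. KO replicate 8 was lowest for 14 of the 15 endocrine markers. Y-linked genes summed to 427 to 497 CPM in 3 of 4 KO libraries and to 414 CPM in 1 of 4 Het libraries, and to under 1 CPM in the rest. Acinar markers summed to 13685 to 46796 CPM in KO and 10465 to 32678 CPM in Het, and duct markers to 526 to 648 CPM in KO and 463 to 621 CPM in Het. Leukocyte markers summed to 22.5 to 442 CPM in KO, highest in replicate 8, and 25.4 to 66.9 CPM in Het. KO replicate 9 held the highest acinar sum, above its endocrine sum of 26245 CPM, and a leukocyte sum of 260.5 CPM. Endothelial markers (6.79 to 28.9 CPM in KO, 2.47 to 12.4 in Het), Schwann-cell markers (26.6 to 34.8 in KO, 17.7 to 54.6 in Het) and erythroid markers (7.10 to 10.5 in KO, 6.41 to 15.3 in Het) were low, with the erythroid Hba-a1, Hba-a2, Hbb-b1 and Hbb-b2 at 0 throughout. In bulk samples, fewer cells of a type and less RNA per cell cannot be told apart.

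None of the 9 potassium channel genes passed the test of KO against Het over all genes. The edgeR test called 0 of 9 at an adjusted p under 0.05, against 1.02% of the 14116 genes tested (0.68% lower and 0.34% higher in KO), and none had an unadjusted p under 0.05, against 12.2% of all genes. DESeq2 and limma-voom with quality weights also called 0 of 9, against 3.12% and 3.54% of all genes. Adjusted p ran from 0.487 for Kcnma1 to 0.967 for Kcnj11. The log2 fold change was negative for 7 genes and positive for 2, with a median of −0.09, against 0.03 over all genes tested. A p above the threshold does not show equal levels, so the intervals matter. In the fit over all 8 libraries, the 95% interval of 6 of the 9 lay within a log2 fold change of 1 in either direction. This leaves out a halving or a doubling in that fit only. The exceptions there were Kcnh6, Kcnk1 and Kcnq1, whose widest bound was −1.16. Leaving out a library moved the estimates, for Kcnk3 to 0.45 (SE 0.30) without Het replicate 7. For Kcnj11 the estimate was −0.29 (SE 0.33) without KO replicate 24. For 7 of the 9 the lowest value came from KO replicate 8, as it did for 14 of the 15 endocrine markers. The share over all genes was not computed. The part of that library's cell make-up in those levels was not tested, and each estimate is also given without KO replicate 8.

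**Figure D1:**
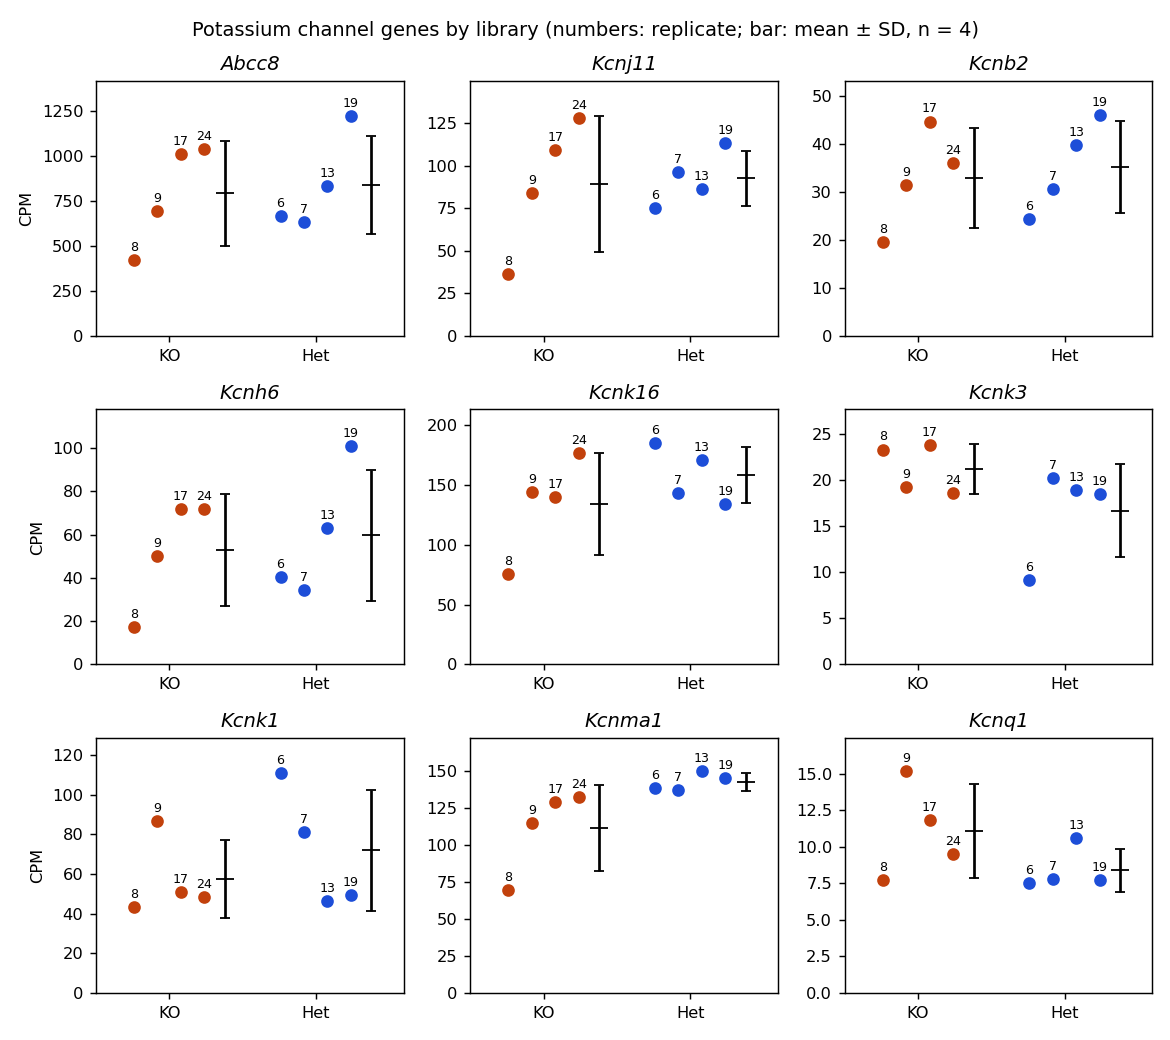
CPM of the 9 potassium channel genes in each library, with KO in orange and Het in blue, numbers giving the replicate and black bars the mean ± SD of 4 libraries. KO replicate 8 is the lowest library for 7 of the 9 genes, and the groups overlap for every gene except Kcnma1.

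Abcc8 encodes the sulfonylurea receptor, the regulatory KATP subunit that drugs such as glibenclamide bind. It stood at 423, 696, 1011 and 1039 CPM in KO replicates 8, 9, 17 and 24, and at 666, 635, 832 and 1224 CPM in Het replicates 6, 7, 13 and 19. The highest level was in a Het library and the lowest in a KO library, and the ranges overlapped widely. Means were 792 ± 292 CPM in KO and 839 ± 271 CPM in Het (SD, n = 4 each). KO differed from Het by −0.08 on the log2 scale (SE 0.30, 95% interval −0.74 to 0.58, adjusted p = 0.942, edgeR). Without KO replicate 8 the estimate was 0.12 (interval −0.38 to 0.62), the opposite sign.

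Kcnj11 encodes the inward-rectifier subunit that forms the KATP pore. In the RefSeq annotation it is the protein-coding neighbour of Abcc8 on chromosome 7. It stood at 36.2, 83.9, 109 and 128 CPM in the KO libraries and at 75.4, 96.3, 86.1 and 113 CPM in the Het libraries, in the same order of replicates. KO replicate 8 was the lowest and KO replicate 24 the highest. Means were 89.4 ± 39.8 CPM in KO and 92.8 ± 16.2 CPM in Het (SD, n = 4 each), a difference of −0.05 on the log2 scale (SE 0.32, interval −0.76 to 0.65, adjusted p = 0.967, edgeR). When KO replicate 8 was left out it was 0.20 (interval −0.20 to 0.60), again with the sign turned.

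A KATP channel contains equal numbers of both subunits, so the balance of the transcripts was set out per kilobase of merged exons. Abcc8 exceeded Kcnj11 on that scale in all 8 libraries, by 7.52, 5.34, 5.95 and 5.23 times in the KO libraries and by 5.69, 4.25, 6.22 and 6.96 times in the Het libraries. The ranges overlapped, and the highest ratio was that of KO replicate 8. These are ratios of RNA levels and say nothing of subunit protein.

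Abcc9 and Kcnj8 encode another known KATP pair, that of smooth muscle and pericytes. Abcc9 stood at 216, 7.66, 4.75 and 5.57 CPM in the KO libraries and at 40.5, 13.6, 11.0 and 4.87 CPM in the Het libraries. Kcnj8 stood at 59.6, 4.31, 2.64 and 0.449 CPM in KO and at 9.50, 12.1, 1.77 and 0.203 CPM in Het. Both were highest in KO replicate 8, the library with the highest mesenchyme markers, and the part of mesenchymal cells in these levels was not tested. Over all 8 libraries the estimate for Abcc9 was 1.74 on the log2 scale (SE 1.19, adjusted p = 0.591) and that for Kcnj8 1.5 (SE 1.32, adjusted p = 0.688). Leaving out KO replicate 8 gave −1.56 (adjusted p = 0.225) and −1.27 (adjusted p = 0.620, edgeR), so 1 library set their direction.

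**Figure D2:**
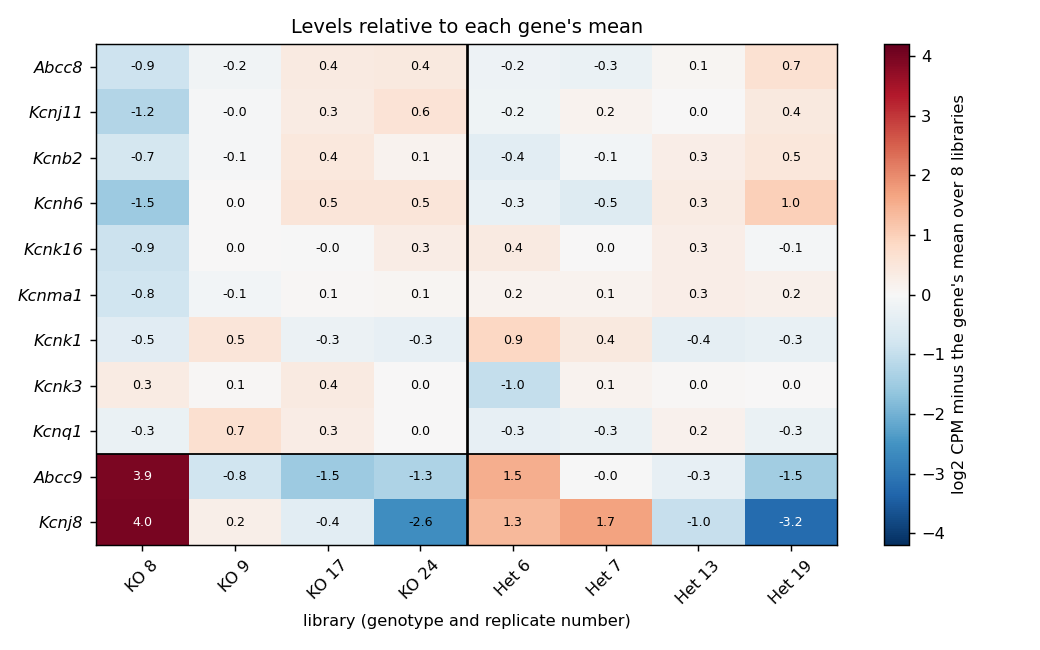
Log2 CPM of each gene minus its own mean over the 8 libraries, in columns by library with KO left of Het, for the 9 genes and, under the line, Abcc9 and Kcnj8. KO replicate 8 is low for most of the 9 and high for Abcc9 and Kcnj8.

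Among voltage-gated channels, Kcnb2 encodes a delayed rectifier of the Kv2 type, the type that repolarises islet cells. It stood at 19.5, 31.5, 44.7 and 36.0 CPM in KO replicates 8, 9, 17 and 24, and at 24.3, 30.6, 39.7 and 46.1 CPM in Het replicates 6, 7, 13 and 19. The groups overlapped over nearly their whole range. Its log2 fold change was −0.09 (SE 0.28, interval −0.72 to 0.53, adjusted p = 0.929, edgeR), and 0.08 without KO replicate 8.

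Kcnh6 encodes a channel of the ether-à-go-go-related family, whose members pass current late in repolarisation. It stood at 17.3, 50.2, 71.8 and 72.0 CPM in the KO libraries and at 40.3, 34.3, 62.9 and 101 CPM in the Het libraries. It was the most variable of the 9, with the highest library 5.85 times the lowest, or 2.94 times without KO replicate 8. The coefficient of variation was 48.9% within KO and 50.6% within Het. KO differed from Het by −0.17 on the log2 scale (SE 0.45, adjusted p = 0.914, edgeR), and the interval of −1.16 to 0.81 includes a halving. The estimate without KO replicate 8 was 0.11.

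Kcnq1 encodes a voltage-gated channel of epithelia and heart that is also present in islets, and lies in an imprinted domain with the antisense RNA Kcnq1ot1. It was low, at 7.72, 15.2, 11.8 and 9.52 CPM in KO and at 7.49, 7.79, 10.6 and 7.71 CPM in Het. KO replicate 9 was the highest, and KO replicate 8 lay among the Het libraries. Its estimated change was 0.40 on the log2 scale (SE 0.31, interval −0.30 to 1.09, adjusted p = 0.651, edgeR), and without KO replicate 8 it was 0.52 (adjusted p = 0.488). Kcnq1ot1 stood at 336, 614, 486 and 482 CPM in KO and at 228, 279, 671 and 838 CPM in Het (log2 fold change −0.07, SE 0.38, adjusted p = 0.963). It held more reads than Kcnq1 in all 8 libraries. The counting is not stated to use strand, so reads from the overlap of the pair cannot be told apart.

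Kcnma1 encodes the pore subunit of the BK channel, which opens with calcium and voltage together. It was the gene of the 9 with the smallest p and the only one of them whose groups did not overlap, which held for 8.03% of all genes tested. KO replicates 8, 9, 17 and 24 held 69.5, 115, 129 and 133 CPM, against 138, 137, 149.9 and 146 CPM in Het replicates 6, 7, 13 and 19. The Het libraries lay close together, with a coefficient of variation of 4.24%, against 26.0% in KO. The estimate was −0.36 on the log2 scale (SE 0.19, interval −0.78 to 0.07, unadjusted p = 0.0906, adjusted p = 0.487, edgeR), which is not a call. With KO replicate 8 left out it was −0.20 (SE 0.13, adjusted p = 0.533).

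Of the BK accessory subunits tested, Kcnmb1 and Kcnmb2 had negative estimates and Kcnmb4 a positive one whose interval includes 0. Kcnmb1 was at −0.78 on the log2 scale (SE 0.35, adjusted p = 0.405, edgeR). Kcnmb4, with 0 to 59 reads per library, was at 1.27 (SE 0.95, interval −0.83 to 3.37, adjusted p = 0.629, edgeR). Kcnmb2, which makes the current inactivate, is described for its small p. It stood at 40.4, 39.9, 41.8 and 45.4 CPM in KO and at 78.5, 73.7, 59.6 and 58.4 CPM in Het. The groups did not overlap. At −0.69 on the log2 scale (SE 0.16, adjusted p = 0.0733) the difference did not pass the edgeR test. It passed by DESeq2 (adjusted p = 0.00488), by limma-voom with quality weights (0.0431) and with a covariate for mesenchyme markers (0.0247), and adjusted p was 0.0747 to 0.217 when each library was left out in turn and 0.194 with a covariate for Y-linked genes.

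Two-pore-domain channels carry the background potassium leak. Kcnk16, which encodes TALK-1, a channel largely restricted to the pancreas, had the second highest level per kilobase of the 9. It stood at 75.7, 144, 140.1 and 177 CPM in KO and at 185, 143, 171 and 134 CPM in Het. KO replicate 8 lay below all others, and the other 7 libraries were mixed. The estimate was −0.24 on the log2 scale (SE 0.23, interval −0.75 to 0.27, adjusted p = 0.720, edgeR), and −0.05 without KO replicate 8 (interval −0.39 to 0.28, adjusted p = 0.911).

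Kcnk1, which encodes a weakly conducting leak channel of the TWIK type, stood at 43.5, 86.5, 51.1 and 48.3 CPM in KO and at 111, 81.0, 46.5 and 49.2 CPM in Het. KO replicate 9 and Het replicates 6 and 7 were high and the other 5 libraries lay between 43.5 and 51.1 CPM, so the split ran across genotypes. KO differed from Het by −0.33 on the log2 scale (SE 0.31, interval −1.02 to 0.37, adjusted p = 0.718, edgeR), and by −0.23 without KO replicate 8.

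Kcnk3, which encodes the acid-sensitive leak channel TASK-1, stood at 23.3, 19.2, 23.8 and 18.6 CPM in KO and at 9.19, 20.2, 18.9 and 18.5 CPM in Het. Het replicate 6 was alone below the rest, and the other Het libraries lay beside the KO libraries. KO differed from Het by 0.35 on the log2 scale (SE 0.27, interval −0.26 to 0.95, adjusted p = 0.649, edgeR), with 0.29 left without KO replicate 8 and 0.14 without Het replicate 6.

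**Figure D3:**
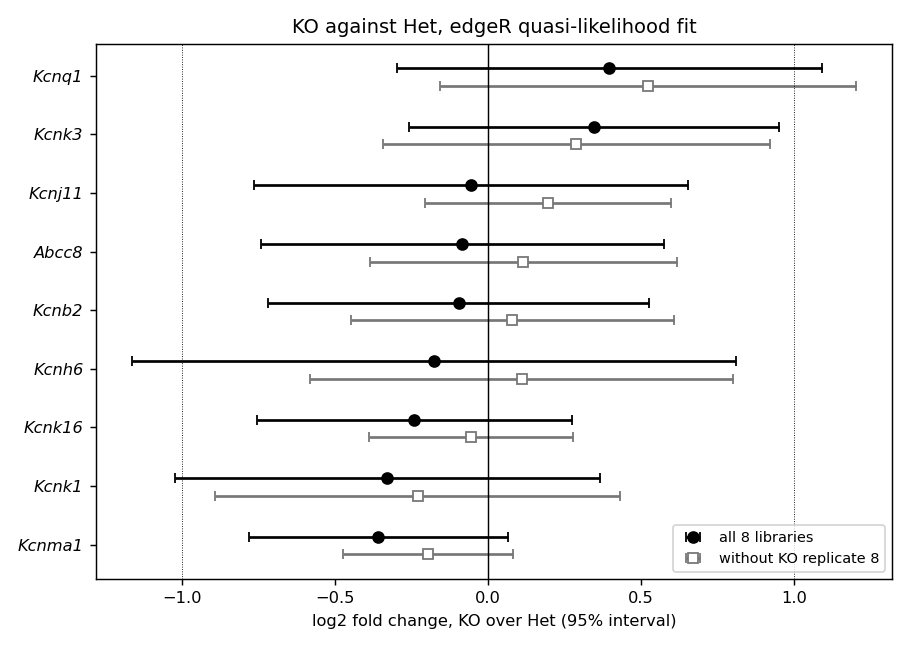
Log2 fold change, KO over Het, with its 95% interval for the 9 genes, from all 8 libraries (filled circles) and without KO replicate 8 (open squares); dotted lines mark a halving and a doubling. Every interval includes 0, and the estimates for Abcc8, Kcnj11, Kcnb2 and Kcnh6 lie on the other side of 0 without that library.

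The levels of different genes were ranked as CPM per kilobase of merged coding-transcript exons. Abcc8 was first among all 56 potassium channel genes tested, at 162 ± 59.8 CPM per kb in KO and 172 ± 55.5 in Het (SD, n = 4 each). Kcnk16 was second, at 56.4 ± 17.8 in KO and 66.6 ± 9.92 in Het. Kcnj11 (28.5 ± 12.7 in KO, 29.5 ± 5.14 in Het) and Kcnk1 (25.7 ± 8.81 in KO, 32.2 ± 13.6 in Het) came next, and each exceeded the other in 4 of 8 libraries. Kcnh6 (15.5 ± 7.55 in KO, 17.4 ± 8.84 in Het) and Kcnma1 (8.63 ± 2.25 in KO, 11.1 ± 0.468 in Het) followed among the 9. Kcnk3, Kcnq1 and Kcnb2 were lowest, with means of 2.17 to 5.57 CPM per kb in KO and 2.32 to 4.38 in Het. Abcc8 was above Kcnk16, and Kcnk16 above Kcnj11, in 8 of 8 libraries, while from Kcnk16 down the ranges of all neighbours overlapped. Kcnma1 and Kcnb2 have merged exons of 12.9 and 15.2 kb, which lowers their value on this scale.

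Within these libraries several of the 9 varied together. The Pearson correlation of log2 CPM over the 8 libraries was 0.98 for Abcc8 with Kcnh6, 0.92 for Abcc8 with Kcnb2 and 0.89 for Abcc8 with Kcnj11. Without KO replicate 8 these were 0.97, 0.85 and 0.79. Kcnk1 ran the other way, at −0.25 with Abcc8 over 8 libraries and −0.83 without KO replicate 8. Kcnj11 with Kcnma1 gave 0.85 over 8 libraries and 0.06 without KO replicate 8, so that correlation rested on 1 library. The points share the cell make-up and depth of each library, and the values describe these 8 libraries. Among 14115 other genes the closest to Abcc8 were Sez6l2, Sipa1l3 and Kcnh6 itself (r of 0.99, 0.98 and 0.98). Without KO replicate 8 these were 0.98, 0.98 and 0.97. For Kcnj11 they were Solh, Pkp3 and Hook2 (0.99, 0.98 and 0.97, and 0.94, 0.90 and 0.88 without KO replicate 8). For Kcnma1 they were Ica1, Aars2 and Abcc12 (0.99, 0.99 and 0.98, and 0.92, 0.91 and 0.80 without KO replicate 8).

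The wider family gives the setting. Of 96 potassium channel genes with a row, subunit partners and sulfonylurea receptors included, 56 passed the filter and 4 had no read in any library. EdgeR called 0 of 56, against 1.02% of all genes. At an unadjusted p under 0.05 there were 11, 7 higher and 4 lower in KO, all among the 47 genes other than the 9. That is 19.6% of the 56, against 12.2% of all genes tested. Without KO replicate 8 it was 10 of 57 family genes, and the share of all genes in that fit is not given. The part of that library's cell make-up in these counts was not tested. The groups did not overlap for 7 of 56, against 8.03% of all genes tested. The median log2 fold change of the family was 0.07, against 0.03 over all genes tested, and 30 were positive and 26 negative. DESeq2, run without the filter on low counts, called 4 of 92 family genes, against 3.12% of all genes. Limma-voom with quality weights called 2 of 56, against 3.54%, and edgeR with a covariate for mesenchyme markers 2 of 56, against 4.14%. That covariate without KO replicate 8 gave 2 of 57, against 3.39% of all genes, and 0 of the 9 were called under either.

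Kcng3 had the smallest p of the family. It encodes a silent voltage-gated subunit that forms channels only together with Kv2 subunits. It stood at 23.0, 21.4, 17.5 and 20.7 CPM in KO and at 9.65, 11.7, 6.80 and 6.89 CPM in Het, and every KO library was above every Het library. At 1.23 on the log2 scale (SE 0.27, adjusted p = 0.0611, edgeR) the difference missed the threshold. It passed by DESeq2 (adjusted p = 0.00116), limma-voom with quality weights (0.0131) and with the mesenchyme covariate (0.0243). It was 1.16 (adjusted p = 0.0636) with KO replicate 8 left out. Leaving out each library in turn gave adjusted p of 0.0636 to 0.206, and the Y-linked covariate gave 0.240.

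Kcnn3, which encodes a small-conductance calcium-activated channel, stood at 32.9, 17.2, 15.5 and 27.9 CPM in KO and at 14.6, 11.1, 11.1 and 10.1 CPM in Het. The groups did not overlap, and KO replicate 8 was highest. The estimate was 0.99 on the log2 scale (SE 0.29, adjusted p = 0.183, edgeR; 0.0499 by DESeq2). Kcnj5, a pore subunit of G-protein-gated inward rectifiers, stood at 46.4, 47.9, 58.2 and 73.3 CPM in KO and at 29.0, 36.5, 47.9 and 28.3 CPM in Het. Het replicate 13 was level with KO replicate 9 and above KO replicate 8, so the groups overlapped, and the estimate was 0.67 on the log2 scale (SE 0.22, adjusted p = 0.246, edgeR).

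**Figure D4:**
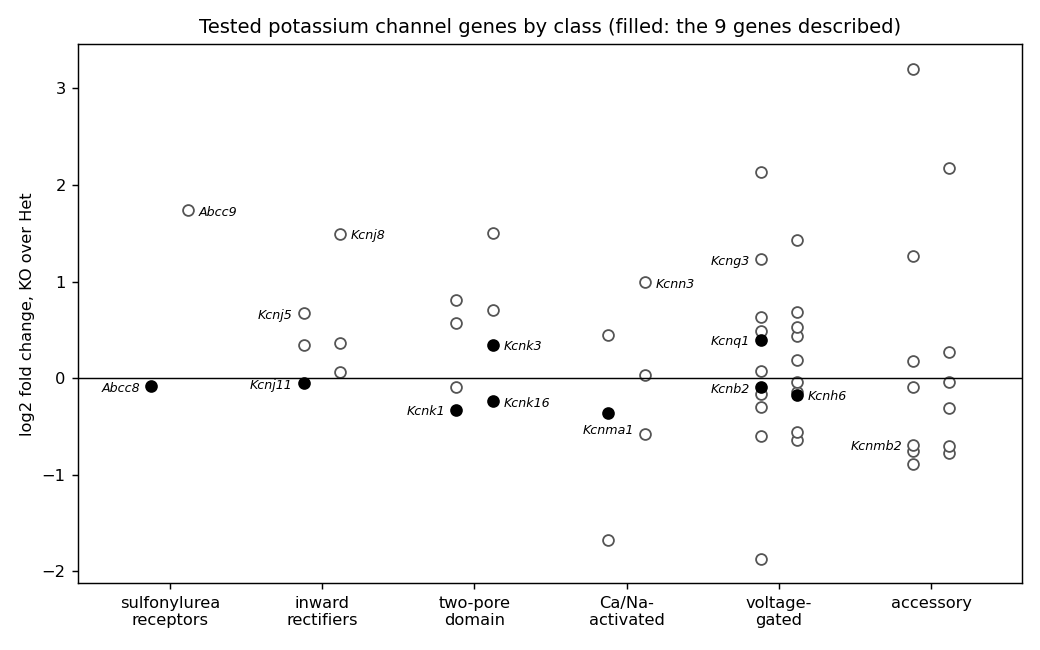
Log2 fold change, KO over Het, of the 56 tested potassium channel genes by class, with the 9 genes filled and side-by-side placement only to separate points. The 9 lie between −0.36 and 0.40, and none of the 56 passed the edgeR test over all genes.

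Around KATP in the triggering pathway, 19 genes of glucose sensing, calcium entry and exocytosis were tested. The list was chosen with earlier results of these data known, so its counts and medians describe the list and do not show an excess. EdgeR called 2 lower in KO and none higher, against 0.68% of all genes called lower. The list's median log2 fold change was −0.17, with 14 of 19 negative, against 0.03 over all genes tested. For 14 of the 19 the lowest value came from KO replicate 8, with a summed level of 1413 CPM, against 2134 to 2642 CPM in the other KO libraries and 2569 to 3072 CPM in Het. Without it the median was −0.04, with 11 of 19 negative, and 3 were called lower, against 1.31% of all genes. The median of the 15 endocrine markers was −0.54 over all 8 libraries, and the part of cell make-up in the list's values was not tested. The glucose-6-phosphatase gene G6pc2 (log2 fold change −3.89, SE 0.22, adjusted p = 5.71e-05) and the L-type calcium channel gene Cacna1c (−1.40, SE 0.27, adjusted p = 0.0405) were the 2 called lower by edgeR over all 8 libraries. G6pc2 was called under every alternative run. Cacna1c was called without KO replicate 8 (adjusted p = 0.0244), but not when any other library was left out (0.0627 to 0.146) or with the Y-linked covariate (0.173). The third gene called lower without KO replicate 8 was Trpm5, a calcium-activated cation channel gene named after its values were seen. Over all 8 libraries Trpm5 was called by DESeq2 (adjusted p = 0.0186), limma-voom (0.000201) and with the mesenchyme covariate (0.00225), but not by edgeR (0.195).

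Promoter windows, from 250 bases before the start to 50 after it, were held for 4 of the 9 genes, Kcnh6, Kcnk1, Kcnk16 and Kcnma1, in RefSeq GRCm38.p6. They were searched on both strands for the E-boxes CAGATG and CAGCTG, words that basic helix-loop-helix factors such as Neurod1 are known to bind. Kcnk16 held a match, the word CAGATG at base −142 from its start, on the minus strand of chr14:20269394-20269423. It is shown with its flanks, the E-box in capitals, because Kcnk16 alone of the 4 held a match.
Kcnk16: agaagctaagacCAGATGagctcaggaaga
The word CAGATG, in either orientation, was in 17.2% of 32851 promoter windows, and CAGCTG in 16.3%, each word counted on its own. The match is a description of the letters. The Kcnk16 RNA beside it was 134 ± 42.3 CPM in KO and 158 ± 23.6 CPM in Het (SD, n = 4 each), a difference within the spread between libraries.

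In the authors' deposited table none of the 9 was called either. The authors' log2 fold changes ran from −0.36 for Kcnma1 to 0.40 for Kcnq1, each with an adjusted p of 1 in the authors' deposited table, which called 184 of 18760 genes tested and none of the potassium channel family.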

How the data were processed

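Cells sorted for the Tomato reporter gave total RNA that was amplified with the NuGen Ovation kit and sequenced as single-end reads, per the labels' protocols. Amplified copies are counted as reads, so depth does not measure molecules. The deposited values are whole-number counts per gene symbol, 1 file per library, not normalized. The tools were TopHat2 2.1.0, Cufflinks 2.0.2, bcl2fastq 1.8.4 and DESeq, with build mm9, per the submitters' processing notes. Neither the counting tool nor the annotation is named there. The authors' deposited comparison holds mean signal (normalized counts) per group, the fold change as a ratio, its log2 and the p-values, per the file headers.

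EdgeR 4.0.16 (R 4.3.3) was run on the counts with filterByExpr (minimum count 10, total 15), TMM scaling and a quasi-likelihood F test, two-sided, without covariates, KO over Het. P-values were adjusted by Benjamini-Hochberg over all 14116 tested genes. SE is the log2 fold change over the root of F, and 95% intervals use the fit's degrees of freedom. The common dispersion was 0.181. Log2 CPM for correlations used a prior count of 2. Scripts were tested on simulated data. Correlations between libraries ran from 0.815 to 0.965 and none was a duplicate.

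The 9 genes and all lists were chosen with earlier results of these data known. Named besides the 9 were Neurod1, Abcc9, Kcnj8, Kcnq1ot1, the 4 other family genes with the smallest p, called genes of the triggering list, and the 3 genes most correlated with Abcc8, Kcnj11 and Kcnma1. Kcnmb1 and Kcnmb4 were added beside Kcnmb2 after the values were seen. The family is every symbol starting with Kcn except Kcnq1ot1, with Abcc8 and Abcc9. Exon lengths are merged exons of GENCODE vM21 coding transcripts (GRCm38); no coordinates of the mm9 files were combined with them. Marker lists covered endocrine, mesenchyme, acinar, duct, endothelial, leukocyte, Schwann-cell, erythroid and Y-linked genes.

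Alternatives were median-ratio scaling, DESeq2 1.42.0, limma 3.58.1 voom with quality weights, no filter, a mesenchyme covariate, a Y-linked covariate (mean log2 CPM of each list), and each library left out. The mesenchyme covariate without KO replicate 8 was chosen after seeing the data.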

Additional observations from a re-analysis of the deposited data

Results flagged for a closer look

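Among 20 genes screened in 2 groups of 4 libraries, 7 of 40 groups held a library far from the other 3. Chance flags about 1 in 20 groups that are independent and chosen beforehand. Here Trpm5 was chosen after its values were seen, and KO replicate 8 was flagged for Abcc9, Kcnj8 and Trpm5 alike. The count therefore does not show an excess. Kcnk3 was low in Het replicate 6, which held 9.19 CPM where the remaining Het libraries held 18.5 to 20.2 CPM. Kcnq1 was high in Het replicate 13, at 10.6 CPM, against 7.49 to 7.79 CPM. Abcc9 in KO replicate 8 reached 216 CPM and lay between 4.75 and 7.66 CPM in the remaining KO libraries; Kcnj8 there reached 59.6 CPM and lay between 0.449 and 4.31 CPM in the remaining ones. Neurod1 was high in Het replicate 19, at 210.5 CPM, against 133 to 141 CPM. Trpm5, a calcium-activated cation channel gene chosen after its values were seen, reached 30.2 CPM in KO replicate 8 and lay between 5.42 and 6.56 CPM in the remaining KO libraries. Het replicate 6 held 34.3 CPM of it, and the remaining Het libraries 41.9 to 42.8 CPM.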

How the results depend on the processing

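No paired analysis was possible because the genotypes share no replicate number. None of the 9 genes was called under any alternative; at an unadjusted p under 0.05 only Kcnma1 passed, under the mesenchyme covariate alone. Genes called over all genes, 144, became 585 under DESeq2, 500 under limma-voom, 584 with the mesenchyme covariate, 28 with the Y-linked covariate and 485 with the mesenchyme covariate without KO replicate 8; leaving out each library gave 29 to 285, the highest without KO replicate 8. Potassium channel genes called, 0 by edgeR, became 4 under DESeq2 (Kcng3, Kcnmb2, Kcnn3 and Kcnj12, the last named after its values were seen) and 2 (Kcng3 and Kcnmb2) by limma-voom, with the mesenchyme covariate and with that covariate without KO replicate 8; leaving out each library gave 0 throughout. Abcc8, Kcnj11, Kcnb2 and Kcnh6 turned positive with the mesenchyme covariate (log2 fold changes of 0.099, 0.0541, 0.0835 and 0.106), with the Y-linked covariate (0.157, 0.0173, 0.0948 and 0.235) and with the mesenchyme covariate without KO replicate 8 (0.0629, 0.156, 0.0329 and 0.0688). By limma-voom Abcc8 (0.0616), Kcnj11 (0.153) and Kcnh6 (0.0198) turned too. Leaving out each library gave −0.26 to 0.15 for Abcc8, −0.29 to 0.20 for Kcnj11, −0.295 to 0.0809 for Kcnb2 and −0.37 to 0.20 for Kcnh6, positive without KO replicate 8 or Het replicate 19. The other 5 kept their direction under all alternatives run; leaving out each library gave −0.42 to −0.05 for Kcnk16, 0.14 to 0.45 for Kcnk3, −0.60 to −0.04 for Kcnk1, −0.47 to −0.20 for Kcnma1 and 0.21 to 0.53 for Kcnq1. Why the values moved was not tested. Counting error is largest for Kcnq1, with 76 to 190 reads per library.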

Other observations

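Kcnq1 and Trpm5 are consecutive protein-coding genes on chromosome 7 in the RefSeq annotation. Trpm5 stood at 30.2, 5.42, 5.66 and 6.56 CPM in KO replicates 8, 9, 17 and 24, against 34.3, 42.6, 42.8 and 41.9 CPM in Het replicates 6, 7, 13 and 19. KO differed from Het by −1.75 on the log2 scale (SE 0.53, adjusted p = 0.195, edgeR) over all 8 libraries and by −2.79 (adjusted p = 6.26e-05) without KO replicate 8. Kcnq1 beside it was 11.1 ± 3.21 CPM in KO and 8.40 ± 1.47 CPM in Het (SD, n = 4 each), with adjusted p of 0.651 and, without KO replicate 8, 0.488. Trpm5 was chosen after its values were seen.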
